A study of Mus musculus with 6 samples.

Results

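The 45 genes described here encode sensors of microbes and damage, the NF-κB pathway that those sensors feed, and the proteins that carry out inflammatory and apoptotic cell death. They were taken by symbol from a table of 17025 genes, of which 44 were found; Nlrp3 was not analysed here. The 6 libraries were RNA-seq of integrin α6-positive epidermal progenitor cells sorted by flow cytometry from newborn mice at postnatal day 0, with no treatment. Those labelled control (n = 3, called control-labelled below) had the genotype K14Cre,Ash2lF/+ and the cKO-labelled ones, for conditional knockout (n = 3), K14Cre,Ash2lF/F, so that every animal carried the Cre recombinase, driven by the keratin 14 promoter of basal keratinocytes, and at least 1 floxed Ash2l allele. Cells of other lineages in the sort are not targeted by that promoter. The series concerns ASH2L, a shared subunit of the methyltransferases of histone H3 lysine 4, in epidermal differentiation and hair follicle formation. Nothing in the labels ties a library to an animal of its own, so the p-values cover the spread among these libraries, which may be technical.

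Toll-like receptors read microbial products at the cell surface or in endosomes, and the NOD proteins read fragments of bacterial cell wall in the cytosol. Adaptors and kinases (MYD88, the IRAKs, the TRAFs, RIPK2) pass the signal to the IκB kinase (IKK), which releases NF-κB dimers such as RELA with NFKB1 from their inhibitors. The tumour necrosis factor (TNF) receptor uses the same route, and where it is blocked, caspase 8 can start apoptosis and RIPK3 with MLKL necroptosis. Keratinocytes are known to be sensitive to the balance of these arms, since loss of caspase 8 or of NF-κB signalling in mouse epidermis causes inflammation of the skin.

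The targeted gene went against the labels. Ash2l stood at 12.4, 18.1 and 15.9 FPKM (fragments scaled by gene length and library depth) in control-labelled libraries 1, 2 and 3 and at 30.9, 29.5 and 22.9 FPKM in cKO-labelled libraries 1, 2 and 3. Its limma adjusted p was 0.024 and lay between 0.056 and 0.0829 with any of 4 libraries left out (control 1, control 3, cKO 1, cKO 2). No library was moved, and every direction below is drawn from those labels. Libraries held 31578875 to 36027550 fragments, recovered from the steps of the FPKM values. All 10 basal keratinocyte markers averaged over 1 FPKM, with a summed level of 4969 to 8716 FPKM in the control-labelled libraries and 8075 to 10476 FPKM in the cKO-labelled ones. The keratins Krt5, Krt14 and Krt15 made up most of that sum, and Krt15 was at 422 to 754 against 2265 to 3681 FPKM. The integrins lay the other way without overlap: Itga6, the gene of the sorted antigen, at 72.05 to 162 against 19.7 to 53.6 FPKM, Itgb4 at 59.95 to 97.6 against 8.56 to 34.2 FPKM and Itga3 at 11.4 to 59.8 against 2.32 to 11.2 FPKM. Their part in the results below was not tested. Markers of other cells were measured as well. The 10 melanocyte markers summed to 3003 to 3433 FPKM in the control-labelled libraries and 182 to 403 FPKM in the cKO-labelled ones, and the 10 Schwann cell markers (Sox10 is on both lists) to 194 to 270 and 83 to 118 FPKM. The 10 fibroblast markers overlapped between the groups, at 128 to 391 and 160 to 495 FPKM. Of 20 macrophage, dendritic and Langerhans cell markers, 19 were in the table and 4 averaged at least 1 FPKM, with 3 at 0 in every control-labelled library. The sum of the list was 20.2 to 21.1 FPKM in the control-labelled libraries and 11.6 to 20.03 FPKM in the cKO-labelled ones. Cd68 made up 4.96 to 13.6 FPKM of it, and Ptprc, the pan-leukocyte gene, was at most 0.173 FPKM. Itgam was lower without overlap as well, at 3.2 to 5.98 against 0.816 to 2.42 FPKM. Fcer1g (0 to 0.481 against 0.982 to 1.43 FPKM) and Cx3cr1 (0 against 0.141 to 0.396 FPKM) of the same list went the other way. Of 10 T cell markers Thy1 alone, also on the fibroblast list, averaged at least 1 FPKM (sums 14.3 to 19.9 and 8.46 to 26.5 FPKM), and 3 of 11 neutrophil and mast cell markers were in the table, summing to at most 0.808 FPKM. The 10 endothelial markers summed to 11.6 to 16.3 and 3.29 to 10.4 FPKM, though Kdr among them overlapped, at 0.985 to 3.64 against 0.906 to 5.56 FPKM. A bulk library averages over its sorted cells, so fewer cells of a type and less RNA per cell cannot be told apart, and the part of the melanocyte, Schwann cell, macrophage-list and endothelial differences in the results below was not tested.

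Of the 44 members, 35 averaged at least 1 FPKM and were tested. Among these, 4 were higher in the libraries labelled cKO (Pycard, Nod1, Birc3 and Myd88) and 8 were lower (Nod2, Ripk3, Sting1, Nfkbia, Ikbkb, Nfkbiz, Rela and Ripk1), called at a Benjamini-Hochberg adjusted p under 0.05 in a limma fit across 11603 genes. As shares of the members tested these are 11.4% and 22.9%, against 5.87% called higher and 13.6% called lower of all genes tested, and 19.5% in either direction. The groups did not overlap for 17 of the 35 members, 48.6%, against 42.9% of all genes tested. The median difference of the tested members was -0.05 on the log2(FPKM + 1) scale and that of all genes -0.17. Scaling the libraries by the median of ratios moved the median of all genes to 0.01 and that of the members to 0.10, with 6 members higher and 7 lower. The count of 4 higher became 2 on leaving out control 2, control 3, cKO 1 or cKO 2, and the count of 8 lower became 5 without control 3 or cKO 2. With 3 libraries per group an exact permutation test of 1 gene, two-sided, cannot go below p = 0.1.

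**Figure D1:**
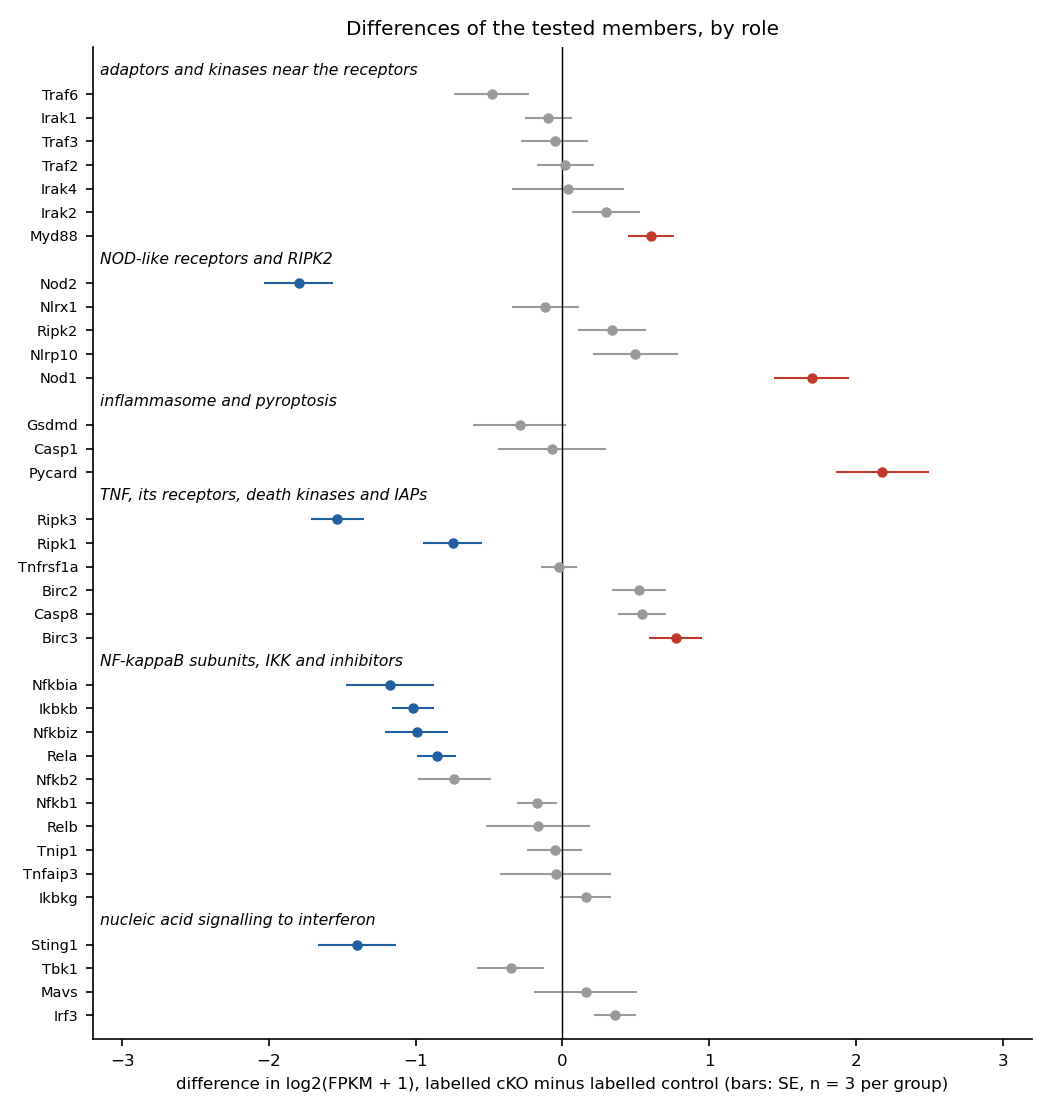
Difference in log2(FPKM + 1), libraries labelled cKO minus those labelled control, for the 35 members tested, grouped by role; points are limma estimates, bars are SE (n = 3 per group), red marks members called higher, blue those called lower and grey those not called. The called members run from -1.80 (Nod2) to 2.18 (Pycard), and 4 of the 10 genes of the NF-κB core are called lower and none higher. Of all genes tested, 13.6% are called lower and 5.87% higher.

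The surface and endosomal Toll-like receptors were at low levels in these libraries. Tlr2, Tlr3, Tlr4 and Tlr5, receptors of bacterial lipoproteins, double-stranded RNA, lipopolysaccharide and flagellin, averaged 0.23 to 0.83 FPKM over the 6 libraries and were not tested. Tlr3 had 127, 55 and 108 fragments in control-labelled libraries 1, 2 and 3 and 70, 90 and 44 in cKO-labelled libraries 1, 2 and 3, which overlap. Tlr4 had 76, 172 and 76 fragments against 22, 25 and 8, which do not overlap. With the filter lowered to a mean of 0.1 FPKM the limma difference of Tlr4 was -0.38 (SE 0.15, adjusted p = 0.131). Cd14, the co-receptor for lipopolysaccharide, was listed at 0 in every library labelled control and had 31, 10 and 43 fragments in the cKO-labelled ones, and Ly96, which completes that receptor on the cell surface, was at 5.46 to 8.68 FPKM over the 6 libraries.

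The sensors of bacterial cell wall moved in opposite directions. Nod2, the muramyl dipeptide sensor, stood at 6.87, 4.46 and 5.40 FPKM in control-labelled libraries 1, 2 and 3 and at 0.814, 1.22 and 0.629 FPKM in cKO-labelled libraries 1, 2 and 3. Its difference was -1.80 (SE 0.24, limma adjusted p = 0.00319), a 6.28-fold lower mean resting on 106 to 195 fragments in each library labelled cKO. Nod1, which senses a peptide of the cell wall of mostly Gram-negative bacteria, stood at 2.43, 3.92 and 2.93 FPKM and at 9.72, 10.8 and 16.99 FPKM. It rose by 1.70 (SE 0.26, adjusted p = 0.00498), 4.03-fold in the means, and no library of either group overlapped the other for either gene. Within a library the ratio of Nod2 to Nod1, which does not depend on how the libraries are scaled, was 2.83, 1.14 and 1.84 in the control-labelled libraries and 0.084, 0.114 and 0.037 in the cKO-labelled ones (exact permutation test, two-sided, p = 0.1, the smallest possible; the pair was chosen after its values were seen). So Nod2 was the more abundant of the pair per length in each library labelled control and Nod1 in each labelled cKO. Ripk2, the kinase that both sensors recruit, did not pass the test (5.27, 8.73 and 7.43 against 10.1, 10.4 and 7.19 FPKM, difference 0.34, SE 0.23, adjusted p = 0.335). Neither did Nlrx1, a mitochondrial member of the family (-0.12, SE 0.23), or Nlrp10, which is known from keratinocytes (0.50, SE 0.29, adjusted p = 0.261).

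The sequences before the starts of this pair are shown because the genes share a function and moved apart, followed by those of Pycard and Ripk3, the other called members with the smallest adjusted p that have an entry in the promoter table. Each is the 250 bases upstream of a RefSeq start in GRCm38.p6, which is not the build of the deposited table, read 5′ to 3′ along the gene, with CpG dinucleotides in capitals. Nod1 has 2 starts, at chr6:54972613-54972862 and chr6:54971662-54971911, minus strand. Nod2 lies at chr8:88647097-88647346, plus strand, Pycard at chr7:127993868-127994117, minus strand, and Ripk3 at chr14:55788858-55789107, minus strand.
Nod1, upstream start: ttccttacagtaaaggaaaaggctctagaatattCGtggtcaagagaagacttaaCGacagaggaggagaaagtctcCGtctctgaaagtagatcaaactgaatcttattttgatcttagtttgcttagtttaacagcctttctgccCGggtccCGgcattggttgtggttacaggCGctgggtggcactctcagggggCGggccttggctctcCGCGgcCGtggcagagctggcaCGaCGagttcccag
Nod1, downstream start: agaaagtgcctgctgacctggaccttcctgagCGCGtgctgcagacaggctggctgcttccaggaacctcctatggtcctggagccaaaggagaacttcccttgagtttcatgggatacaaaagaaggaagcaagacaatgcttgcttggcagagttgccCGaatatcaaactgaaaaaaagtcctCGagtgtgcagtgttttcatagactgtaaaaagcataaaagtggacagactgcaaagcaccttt
Nod2: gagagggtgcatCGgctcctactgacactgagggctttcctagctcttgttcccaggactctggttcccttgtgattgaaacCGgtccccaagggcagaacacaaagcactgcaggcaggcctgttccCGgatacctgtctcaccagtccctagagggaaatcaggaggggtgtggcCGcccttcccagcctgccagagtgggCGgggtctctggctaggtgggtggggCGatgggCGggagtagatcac
Pycard: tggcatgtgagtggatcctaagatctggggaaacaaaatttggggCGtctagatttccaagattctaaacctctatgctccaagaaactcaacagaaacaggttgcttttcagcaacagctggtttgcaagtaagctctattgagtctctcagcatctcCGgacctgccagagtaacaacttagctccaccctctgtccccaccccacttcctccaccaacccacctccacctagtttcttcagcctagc
Ripk3: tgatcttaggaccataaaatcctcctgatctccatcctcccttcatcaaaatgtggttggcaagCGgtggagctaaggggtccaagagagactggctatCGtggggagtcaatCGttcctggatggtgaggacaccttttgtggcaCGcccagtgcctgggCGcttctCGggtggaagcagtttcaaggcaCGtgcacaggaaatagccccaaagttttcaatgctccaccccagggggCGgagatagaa
CpG dinucleotides numbered 12 and 4 at the starts of Nod1, 7 at Nod2, 2 at Pycard and 8 at Ripk3, against a median of 6 (quartiles 2 and 16) over 32851 promoters. None of these 5 windows held a match to the κB consensus or to the core of the interferon-stimulated response element (ISRE) described below, which says only that those letters are not in these windows.

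**Figure D2:**
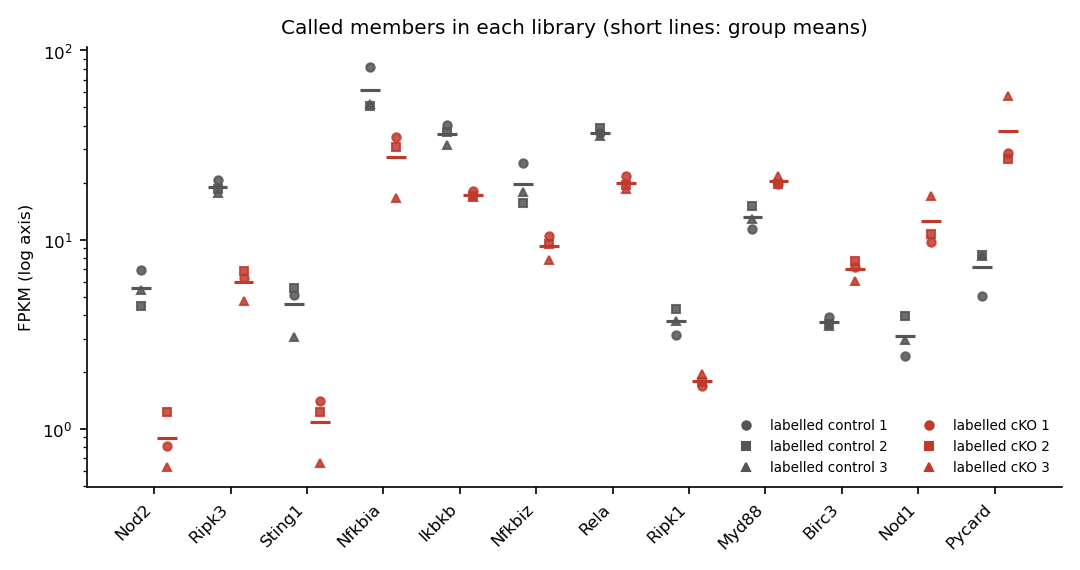
FPKM (log axis) of the 12 called members in each of the 6 libraries, grey for those labelled control and red for the cKO-labelled ones, with short lines at the group means. The groups do not overlap for any of the 12, which were chosen by a test on these same values. Of all genes tested, 42.9% do not overlap. Nod2 falls from 4.46 to 6.87 FPKM to at most 1.22 FPKM, and Pycard rises from at most 8.28 FPKM to at least 26.7 FPKM.

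Of the 7 adaptors and kinases near the receptors, Myd88 was called higher and none lower, beside 5.87% called higher and 13.6% called lower of all genes tested. Myd88, the adaptor of most Toll-like receptors and of the interleukin-1 receptor family, stood at 11.4, 15.1 and 12.9 FPKM in the control-labelled libraries and at 19.6, 19.7 and 21.8 FPKM in the cKO-labelled ones. Its difference was 0.60 (SE 0.16, adjusted p = 0.0353), and the call was lost without any 1 of the 6 libraries and with limma-voom on the recovered fragments (adjusted p up to 0.0995). The kinases that MYD88 recruits did not pass the test. Irak1 was the most abundant of them, at 24.0, 26.6 and 25.4 against 26.6, 25.7 and 19.3 FPKM, and Irak2 (0.30, SE 0.23) averaged 1.91 and 2.57 FPKM. Irak4 stood at 2.97, 2.38 and 1.14 against 1.40, 1.44 and 4.32 FPKM, so that the highest value, in the library labelled cKO 3, was beside low values in cKO 1 and 2. Of the TRAF ubiquitin ligases and adaptors, Traf6 averaged 20.7 ± 2.40 (SD, n = 3) and 15.1 ± 5.11 FPKM and was at 9.47 FPKM in cKO 3 (difference -0.48, SE 0.26, adjusted p = 0.221). Traf2 (0.02, SE 0.19) and Traf3 (-0.05, SE 0.23) lay near 0.

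The core of the NF-κB pathway held 4 called members of 10, all lower: the subunit Rela, the kinase Ikbkb and the inhibitors Nfkbia and Nfkbiz. Of all genes tested, 13.6% were called lower and 5.87% higher. Rela, which carries the main transactivation domain of the canonical dimer, stood at 36.4, 38.9 and 35.1 FPKM in the control-labelled libraries and at 21.7, 19.5 and 18.6 FPKM in the cKO-labelled ones. Its difference was -0.86 (SE 0.13, adjusted p = 0.00556), with group SDs of 1.91 and 1.60 FPKM. Nfkb1, which encodes p105, the precursor of its partner p50, stood at 33.1, 32.7 and 39.5 against 32.2, 31.8 and 28.8 FPKM and did not pass the test (-0.17, SE 0.14, adjusted p = 0.404). The ratio of Rela to Nfkb1 within a library was 1.10, 1.19 and 0.888 in the control-labelled libraries and 0.673, 0.613 and 0.645 in the cKO-labelled ones, without overlap (exact permutation test, two-sided, p = 0.1; chosen after the values were seen).

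Ikbkb, the IKK catalytic subunit of the canonical route, stood at 40.3, 37.0 and 31.6 FPKM and at 18.01, 17.1 and 16.9 FPKM, 2.1-fold lower in the means (-1.02, SE 0.14, adjusted p = 0.00399). Ikbkg, the regulatory subunit NEMO, did not pass the test, at 7.77, 8.38 and 6.41 against 8.38, 8.89 and 8.13 FPKM (0.16, SE 0.17). Chuk, the other catalytic subunit and no member here, was lower as well, as given with the pathway lists. Of the alternative-route subunits, Nfkb2 averaged 4.53 and 2.23 FPKM without overlap and missed the threshold (-0.74, SE 0.25, adjusted p = 0.076), and 19.7% of its exonic bases in GENCODE M21 (GRCm38) are shared with genes on the opposite strand, Psd among them. Relb stood at 2.61, 2.01 and 3.36 against 2.98, 3.49 and 0.873 FPKM, the lowest value again in cKO 3.

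Among the feedback inhibitors, Nfkbia (IκBα) and Nfkbiz (IκBζ) were lower and Tnfaip3 and Tnip1 did not pass the test. Nfkbia stood at 81.8, 51.1 and 52.0 FPKM in control-labelled libraries 1, 2 and 3 and at 34.8, 30.7 and 16.6 FPKM in cKO-labelled libraries 1, 2 and 3. Its difference was -1.17 (SE 0.30, adjusted p = 0.0321); the call was lost without any 1 of the control-labelled libraries or without cKO 2, and with no filter on low genes (adjusted p up to 0.0897), and on the 4 libraries control 2, control 3, cKO 1 and cKO 2 the difference was -0.64, with the call kept. Nfkbiz, an atypical inhibitor that also acts as a co-activator of some NF-κB targets, stood at 25.5, 15.7 and 17.8 against 10.4, 9.46 and 7.81 FPKM (-0.99, SE 0.21, adjusted p = 0.0181). It was just over the threshold of 0.05 on leaving out control 3 (adjusted p = 0.0505) or cKO 2 (0.0511). The ratio of Nfkbia to Rela within a library overlapped between the groups, at 2.25, 1.31 and 1.48 against 1.60, 1.58 and 0.893 (exact permutation test, two-sided, p = 0.6; chosen after the values were seen). Tnfaip3, the ubiquitin-editing enzyme A20, was low and scattered, at 3.27, 1.03 and 1.38 against 1.63, 2.91 and 0.825 FPKM. Its partner Tnip1 averaged 11.7 ± 1.46 and 11.3 ± 1.92 FPKM (SD, n = 3).

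The feedback inhibitors are known as targets of NF-κB itself, and their promoters are shown for that reason, with those of the other members that held a κB match. Nfkbiz had no promoter entry and could not be searched. The same 250-base windows were searched on both strands for the κB consensus and for the ISRE core (GAAA, 2 bases of any kind, GAAA). Of 35 members with an entry, 9 held a κB match and 2 an ISRE match. Of all 32851 promoters of the same length, 7.25% held a κB match and 2.98% an ISRE match, and of the 49 promoters of all members listed 28.6% and 4.08%. Those 49 count every start of a gene, so the same site counts more than once for Irak1 and Casp4, and they include Nlrp3. Their median CpG number was 10, against 6 for all promoters. Whether this bears on the matches was not tested. A match is a description of the sequence and not a measured binding site. Capitals mark the match, or overlapping matches, and lower case up to 15 bases on each side. The stretches lie at chr12:55492652-55492691 (Nfkbia, minus strand), chr10:19015511-19015550 and chr10:19015411-19015437 (Tnfaip3, minus), chr11:54962972-54963013 (Tnip1, minus), chr19:46304683-46304723 (Nfkb2, plus), chr9:5308741-5308781 (Casp4, plus), chr3:83841756-83841796 (Tlr2, minus), chr8:45410567-45410606 (Tlr3, minus), chr12:111166345-111166369 (Traf3, plus), chrX:74023922-74023954 (Irak1, minus) and chr9:119340034-119340073 (Myd88, minus, ISRE), in GRCm38.p6. A second match of Casp4 and 3 of Nfkb2 are not shown, and no member held both motifs.
Nfkbia: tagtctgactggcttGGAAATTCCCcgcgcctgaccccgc
Tnfaip3, distal: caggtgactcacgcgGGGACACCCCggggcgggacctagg
Tnfaip3, proximal: actggaatttccatcGGAAATCCCCct
Tnip1: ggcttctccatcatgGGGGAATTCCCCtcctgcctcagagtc
Nfkb2: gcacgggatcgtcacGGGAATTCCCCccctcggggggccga
Casp4: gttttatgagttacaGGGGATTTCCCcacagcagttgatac
Tlr2: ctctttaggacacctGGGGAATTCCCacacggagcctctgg
Tlr3: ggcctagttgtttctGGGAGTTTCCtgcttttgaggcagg
Traf3: gcccaggcggcccgcGGGGATTTCC
Irak1: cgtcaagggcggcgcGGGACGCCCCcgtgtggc
Myd88, ISRE: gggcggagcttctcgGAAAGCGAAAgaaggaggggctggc
Of the 9 members that held a κB match, Nfkbia was called lower, 5 (Irak1, Traf3, Nfkb2, Tnfaip3 and Tnip1) were not called, and Tlr2, Tlr3 and Casp4 were under the filter. Calls of so few members cannot show whether a match went with a direction of change. The differences were -1.17 for Nfkbia, -0.74 for Nfkb2, -0.10 for Irak1, -0.05 for Traf3, -0.04 for Tnfaip3 and -0.05 for Tnip1. With the filter at 0.1 FPKM they were -1.22 for Casp4, -0.19 for Tlr3 and 0.24 for Tlr2. None of the 4 members called higher held a κB match. Among the members called lower, Nfkbiz, Ikbkb and Sting1 had no promoter entry and were not searched. Myd88, called higher, held the ISRE core beginning 40 bases before its start.

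Of the inflammasome and pyroptosis genes, the adaptor rose while the caspase and the pore protein did not pass the test. Pycard (ASC), which links sensors to caspase 1, stood at 5.04, 8.28 and 8.24 FPKM in control-labelled libraries 1, 2 and 3 and at 28.7, 26.7 and 57.6 FPKM in cKO-labelled libraries 1, 2 and 3. Its rise of 2.18 (SE 0.32, adjusted p = 0.00443), 5.24-fold in the means, was the largest among the members tested. The value of cKO 3 was well above those of the other cKO-labelled libraries. In GENCODE M21 12.8% of the exonic bases of Pycard are shared with a predicted gene on the opposite strand, and whether the counting used strand is not given in the sources used here. Casp1 was low, at 0.502, 2.00 and 1.51 against 0.570, 0.913 and 2.26 FPKM (-0.07, SE 0.37), and Gsdmd, whose product forms the pore, was at 1.23, 2.61 and 2.21 against 1.46, 2.32 and 0.722 FPKM (-0.29, SE 0.31). The ratio of Pycard to Casp1 within a library was 10, 4.14 and 5.45 in the control-labelled libraries and 50.3, 29.2 and 25.5 in the cKO-labelled ones. Casp4, the caspase that senses cytosolic lipopolysaccharide, had 40, 137 and 44 fragments in the control-labelled libraries and 6, 0 and 0 in the cKO-labelled ones. It averaged under 1 FPKM and was not tested; with the filter at 0.1 FPKM its difference was -1.22 (SE 0.29, adjusted p = 0.0288).

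**Figure D3:**
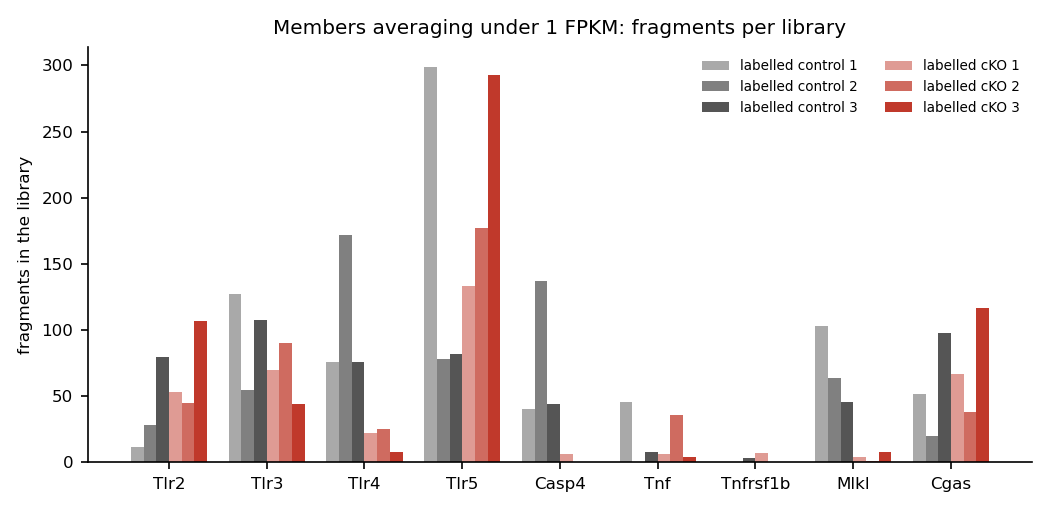
Fragments in each library for the 9 members that averaged under 1 FPKM, recovered from the FPKM steps; grey bars are the control-labelled libraries and red bars the cKO-labelled ones. Casp4, Mlkl and Tlr4 show no overlap of the groups, Mlkl with 46 to 103 fragments against 1 to 8, and the other 6 genes overlap. Of all genes tested, 42.9% do not overlap, and no such share was taken for genes under the filter.

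In the TNF and cell death arm, the kinases Ripk3 and Ripk1 were lower and the inhibitor of apoptosis Birc3 higher, while Casp8 and Birc2 missed the threshold. Tnf itself was close to 0, with 46, 0 and 8 fragments in the control-labelled libraries and 6, 36 and 4 in the cKO-labelled ones, and Tnfrsf1b, the second TNF receptor, had at most 7 fragments in any library. Tnfrsf1a, the main receptor, was the most abundant member, at 67.1, 59.7 and 55.5 against 57.3, 59.96 and 61.6 FPKM. Its difference of -0.02 had an SE of 0.12, the smallest among the members tested.

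Ripk3, the kinase that starts necroptosis, stood at 20.6, 18.6 and 17.7 FPKM in the control-labelled libraries and at 6.28, 6.83 and 4.72 FPKM in the cKO-labelled ones. It had the smallest adjusted p of the members (-1.54, SE 0.18, adjusted p = 0.00224), a 3.19-fold lower mean, and kept its call in all 14 alternatives run. Mlkl, the pore protein that RIPK3 phosphorylates, was not tested at under 1 FPKM, with 103, 64 and 46 fragments against 4, 1 and 8. With the filter at 0.1 FPKM its difference was -0.73 (SE 0.17, adjusted p = 0.0287). Ripk1, the scaffold kinase upstream of survival and death, stood at 3.11, 4.29 and 3.74 against 1.68, 1.77 and 1.94 FPKM (-0.75, SE 0.20, adjusted p = 0.0382). It shares 8.04% of its exonic bases with Serpinb6a and a predicted gene, and its call was lost under median of ratios scaling, with no filter on low genes, and on leaving out control 2, control 3, cKO 1 or cKO 2, with an adjusted p of at most 0.126.

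Casp8, whose product cleaves RIPK1 and RIPK3, stood at 6.92, 8.60 and 7.73 FPKM in the control-labelled libraries and at 11.6, 12.3 and 11.3 FPKM in the cKO-labelled ones. The groups did not overlap, yet the difference just missed the threshold (0.54, SE 0.16, adjusted p = 0.0511); it was called under median of ratios scaling (0.73) and on the 4 libraries control 2, control 3, cKO 1 and cKO 2. The ratio of Casp8 to Ripk3 within a library was 0.336, 0.462 and 0.437 in the control-labelled libraries and 1.85, 1.79 and 2.39 in the cKO-labelled ones (exact permutation test, two-sided, p = 0.1, the smallest possible; the pair was chosen after its values were seen). Birc3 (cIAP2), a ubiquitin ligase that holds RIPK1 in the survival complex, rose from 3.89, 3.57 and 3.51 to 7.21, 7.72 and 6.03 FPKM (0.77, SE 0.18, adjusted p = 0.0246). Its call was lost on leaving out control 2, control 3, cKO 1 or cKO 2, with an adjusted p of at most 0.104. Its relative Birc2 (cIAP1) stood at 11.4, 7.95 and 9.55 against 15.4, 14.99 and 12.2 FPKM (0.52, SE 0.19, adjusted p = 0.0878), called in the same 2 alternatives as Casp8.

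**Figure D4:**
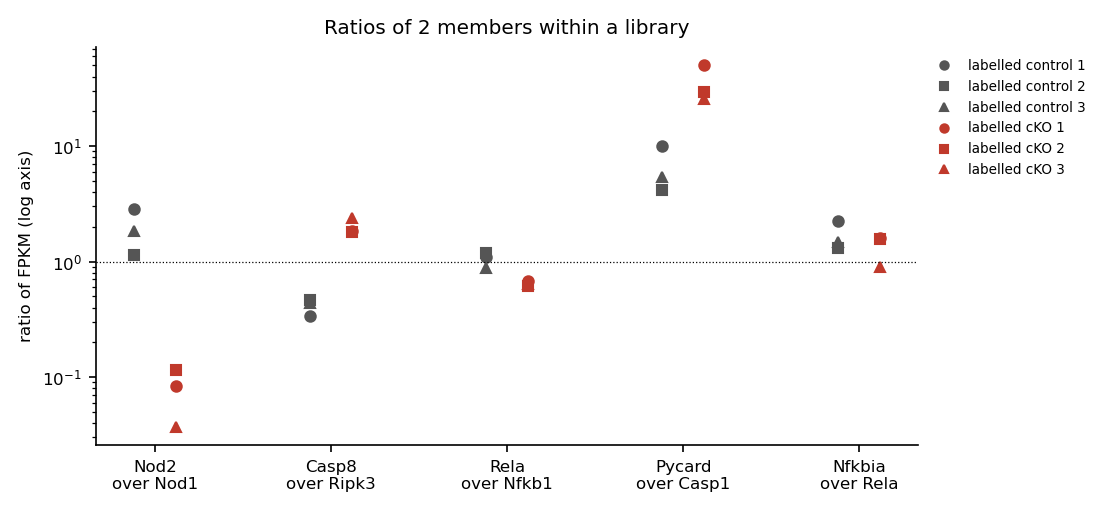
Ratio of the FPKM of 2 members within each library (log axis), grey for libraries labelled control and red for the cKO-labelled ones; the dotted line marks equal FPKM. The groups overlap for Nfkbia over Rela and not for the other 4 ratios, and Nod2 over Nod1 and Casp8 over Ripk3 lie on opposite sides of the line in the 2 groups.

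In the arm that turns cytosolic nucleic acid into interferon, the DNA-sensing adaptor was lower and the kinase and transcription factor downstream did not pass the test. Sting1 stood at 5.12, 5.52 and 3.07 FPKM in the control-labelled libraries and at 1.40, 1.23 and 0.657 FPKM in the cKO-labelled ones. It fell by 1.40 on the log2(FPKM + 1) scale (SE 0.27, adjusted p = 0.0118), 4.18-fold in the means, on 55 to 109 fragments in each library labelled cKO. Cgas, the enzyme that makes its ligand, was under 1 FPKM with overlapping groups, at 52, 20 and 98 fragments against 67, 38 and 117. Mavs, the adaptor for RNA sensors, was at 4.47, 3.33 and 2.71 against 3.02, 2.57 and 7.51 FPKM, the highest value in cKO 3. Tbk1 stood at 25.7, 30.6 and 34.4 against 27.4, 28.2 and 16.4 FPKM (-0.35, SE 0.23), and Irf3, the factor that it phosphorylates, at 41.2, 32.9 and 38.8 against 47.1, 45.1 and 53.0 FPKM (0.36, SE 0.14, adjusted p = 0.114). Irf3 was among the most abundant members, with Tnfrsf1a and Nfkbia, at a mean of 43.0 FPKM over the 6 libraries. The library labelled cKO 3 held, among members not called, the highest value of its group for Irak4 and Mavs and the lowest for Traf6, Relb and Tbk1. Other uncalled members, Irak1, Traf3 and Nlrp10 among them, also had an end value of their group in cKO 3. None of the 5 named first was called without that library.

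Other genes of the same pathways were counted from 4 lists, and calls among them ran almost wholly downward, against 5.87% called higher and 13.6% called lower of all genes. Of 31 tested adaptors, ubiquitin enzymes, kinases and NF-κB factors, 8 were lower and none higher (median difference -0.38; p under 0.05 without adjustment for 15, and for 4030 of all 11603 genes). Chuk, the other IKK catalytic subunit, averaged 18.2 and 10.3 FPKM (-0.76, SE 0.16, adjusted p = 0.0163). Bcl3, an atypical IκB, fell by 1.55 (adjusted p = 0.0182) and Nfkbib, IκBβ, by 0.75 (adjusted p = 0.0201). The 8 became 3 under median of ratios scaling, 1 on leaving out control 2, 3 without either control 3 or cKO 2, 4 without control 1 and 5 without cKO 1. On the 4 libraries they became 13. With limma-voom none of this list, of the receptor list or of the inflammatory list below was called higher either.

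Of 13 tested members of the list of other pattern receptors, inflammasome genes and interferon regulatory factors, 6 were lower and none higher (median -0.62; p under 0.05 without adjustment for 6, beside the 4030 of 11603 of all genes). Irf7, the factor that amplifies interferon production, averaged 5.59 and 0.671 FPKM (-1.95, adjusted p = 0.0045), Nlrc5, an activator of MHC class I genes, 2.03 and 0.0421 FPKM (-1.53, adjusted p = 0.00524), and Irf9 16.2 and 8.12 FPKM (-0.91, adjusted p = 0.00912). Irf7, Nlrc5 and Ifi204 (1.87 and 0.212 FPKM), all called lower, passed the filter only through the control-labelled libraries. The count and the median of this list depend in part on that. Nlrc5 had 6, 27 and 1 fragments in cKO-labelled libraries 1, 2 and 3. The other 18 of 31 genes of the list in the table averaged under 1 FPKM, among them Tlr1, Tlr6, Tlr7, Tlr8, Tlr9 and Zbp1. The 6 became 4 without control 2 or control 3.

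Of 33 tested caspases, gasdermins, BCL2 family genes and death receptors, 9 were lower and 1 higher (median -0.41; p under 0.05 without adjustment for 15). Bax, the effector of the mitochondrial route, averaged 65.8 and 32.4 FPKM (-0.99, adjusted p = 0.00384), Apaf1, the core of the apoptosome, 13.6 and 4.22 FPKM (-1.48, adjusted p = 0.00521) and Ninj1, which ruptures the membrane of dying cells, 30.8 and 13.7 FPKM (-1.13, adjusted p = 0.00568). The 1 higher was Gsdma, a gasdermin known from skin, at 5.83, 9.58 and 8.14 against 15.8, 15.5 and 14.3 FPKM (0.89, SE 0.20, adjusted p = 0.0201); it was named after its value was seen. It was not called on leaving out control 3, cKO 1 or cKO 2, and the 9 lower became 6, 5, 4 and 4 without control 2, control 3, cKO 1 and cKO 2. Bax and other p53 targets of this list were known from earlier results of these data to be lower.

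Of 12 tested inflammatory genes known as NF-κB targets, 5 were lower and none higher (median -0.99; p under 0.05 without adjustment for 6, beside the 4030 of 11603 of all genes): Cxcl10 (means 4.13 and 0.080 FPKM), Ccl27a (24.5 and 10.6 FPKM), Ier3 (23.7 and 4.20 FPKM), Ptgs2 (8.07 and 0.227 FPKM) and Irf1 (4.41 and 0.976 FPKM). Of these, Cxcl10, Ptgs2 and Irf1 averaged under 1 FPKM in the cKO-labelled libraries. They passed the filter only through the control-labelled ones, so the count and the median of this list depend in part on the filter. Ccl27a, a chemokine of keratinocytes, stood at 24.97, 22.8 and 25.7 against 11.9, 10.6 and 9.35 FPKM (-1.14, adjusted p = 0.00349). Sod2, a mitochondrial enzyme that NF-κB also induces, was at 14.4, 12.7 and 13.5 against 13.2, 12.8 and 14.6 FPKM (0.00, SE 0.15). Of the classic inflammatory products, Il1b, Cxcl1, Cxcl2, Ccl2 and Ccl20 averaged under 1 FPKM. Cxcl10, Irf7, Irf1 and Irf9 are also interferon-response genes, and their fall is not independent of what earlier results of these data showed for that response.

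**Figure D5:**
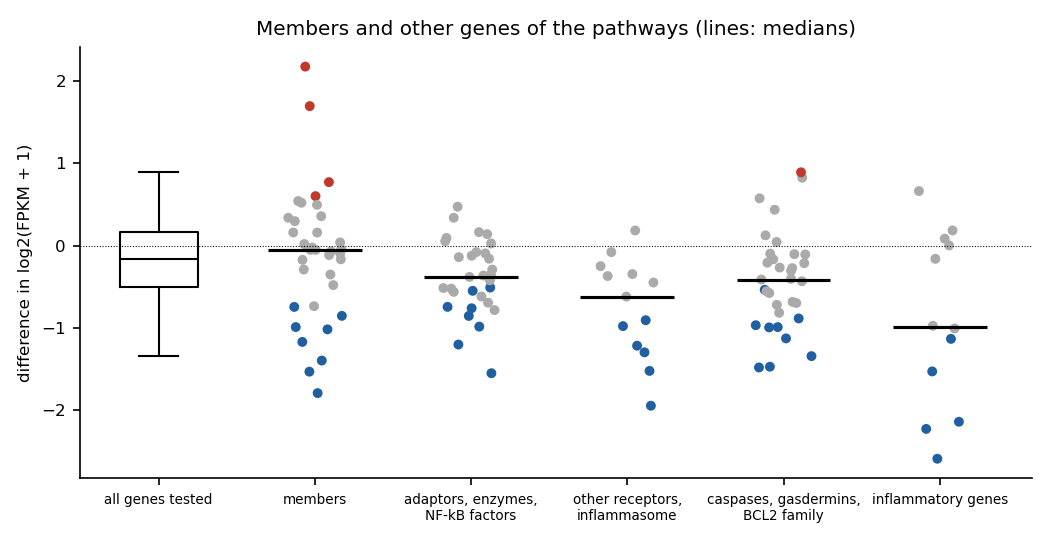
Difference in log2(FPKM + 1), labelled cKO minus labelled control, for all 11603 genes tested (box: quartiles; whiskers: 5th and 95th percentiles), the members and 4 lists of other pathway genes; each point is a gene, red if called higher, blue if called lower, grey if not called, and black lines are medians. The medians of the 4 lists (-0.38, -0.62, -0.41 and -0.99) lie below that of all genes (-0.17), and that of the members (-0.05) above it.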

How the data were processed

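RNA-seq libraries of sorted epidermal cells (3 labelled control, 3 labelled cKO) were compared. Per the file headers, the authors deposited gene-level FPKM values in 1 table. fastp, HISAT2, HTSeq and GRCm39 are named in the submitters' processing notes, without versions; annotation release, gene filter and strand use are not stated there. Whole fragments were recovered for 17024 of 17025 genes, within a relative tolerance of 1e-09.

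The 11603 genes averaging 1 FPKM or more across the 6 libraries were fitted on log2(FPKM + 1) using limma-trend (limma 3.58.1, R 4.3.3) with a term for group alone. P-values were Benjamini-Hochberg adjusted over all these genes and called under 0.05. This scale understates changes of low genes. A gene high in 1 group alone can pass the filter, which is on the mean over the 6 libraries. The fit was tested on simulated data. Alternatives were pseudocounts of 0.1 and 0.01, a filter at 0.1 FPKM or none, median of ratios scaling, a replicate block and each library left out. A limma-voom fit of the recovered fragments and a fit on 4 libraries were chosen after seeing the data.

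The members, the lists and the libraries of that last fit were chosen with earlier results of these data known. Named were every called member, 9 members chosen as nodes of the pathways, and per list the 3 genes of smallest adjusted p; other genes named were chosen after their values were seen. Promoters are RefSeq's, and exon overlaps are from GENCODE M21, both on GRCm38 and used for sequence and names only. Figures were drawn with matplotlib 3.10.9.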

Additional observations from a re-analysis of the deposited data

How the results depend on the processing

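All 12 called members kept their direction in each of the 14 alternatives run, and 7 of them (Nod1, Nod2, Pycard, Ripk3, Rela, Ikbkb and Sting1) also kept their calls in all 14. Calls of Myd88, Birc3, Ripk1, Nfkbia and Nfkbiz were each lost on leaving out any 1 of several libraries, as given with each. Leaving out 1 library at a time gave 390 to 715 genes higher (681 with all 6) and 712 to 1448 lower (1576), members 2 to 3 higher and 5 to 8 lower, adaptors and NF-κB factors 1 to 6 lower, and death genes 0 to 1 higher and 4 to 8 lower. On the 4 libraries control 2, control 3, cKO 1 and cKO 2 there were 1174 genes higher and 2402 lower, 13 adaptors and factors lower and 1 inflammatory gene higher. Lower filters gave 1 adaptor higher (at 0.1 FPKM and with none) and, with none, 2 death genes higher. Median of ratios scaling gave 1 adaptor higher and 3 lower. It moved the share of calls that were higher from 30.2% to 48.6%.

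The deviations of same-numbered libraries from their group means correlated at -0.307, 0.08 and -0.261. Deviations within a group of 3 are tied to each other, so these values cannot show whether the replicate numbers pair the libraries. With the replicate block 432 genes were higher and 893 lower, 2 members higher, 3 adaptors lower and 0 death genes higher. The calls of Birc3, Myd88 and Ripk1 were lost.

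Of 23 members not called, 12 changed sign in some alternative, none with an adjusted p under 0.161. Under median of ratios scaling Casp1 was at 0.0502, Irak1 at 0.10, Nfkb1 at 0.023, Nlrx1 at 0.0623, Tnfaip3 at 0.0688, Tnfrsf1a at 0.18, Tnip1 at 0.13 and Traf3 at 0.12. On the 4 libraries Irak1 was at 0.008, Irak4 at -0.15, Mavs at -0.08, Nlrx1 at 0.13, Relb at 0.22, Tnfaip3 at 0.55, Tnfrsf1a at 0.0257, Tnip1 at 0.0894 and Traf3 at 0.10. With 1 library left out the differences ran from -0.37 to 0.15 for Casp1, -0.18 to 0.0442 for Irak1, -0.34 to 0.23 for Irak4, -0.23 to 0.40 for Mavs, -0.30 to 0.0937 for Nlrx1, -0.41 to 0.22 for Relb, -0.32 to 0.27 for Tnfaip3, -0.0853 to 0.0492 for Tnfrsf1a, -0.16 to 0.0705 for Tnip1, -0.0584 to 0.10 for Traf2 and -0.18 to 0.15 for Traf3. The cause was not tested. Depth limits the 9 members under 1 FPKM, several of which rest on fewer than 100 fragments in a library.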
